A study of Mus musculus with 16 samples.

Results

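The core circadian clock genes were examined in the mouse dorsal raphe nucleus (DRN), a midbrain cell group rich in serotonin neurons that project to the forebrain. The set was given by symbol and comprises 10 genes, namely *Per1*, *Per2*, *Per3*, *Clock*, *Arntl*, *Cry1*, *Cry2*, *Nr1d1*, *Nr1d2* and *Dbp*. All 10 were found among the 14504 genes of the expression table, and all 10 were tested.

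Polyadenylated RNA was sequenced from 16 DRN libraries of adult male C57BL/6 mice kept under a cycle of 12 h of light and 12 h of darkness. Control mice had not been defeated. Stressed mice had gone through chronic social stress for 30 days and were sorted by their behavior into a passive coping group (PS, dep1 in the labels) and an active coping group (AS, dep2 in the labels). Each mouse received 1 injection of saline or of dexamethasone (DEX), a synthetic agonist of the glucocorticoid receptor, at 2 mg/kg, and its tissue was taken 6 h later. After saline there were 3 control, 2 PS and 3 AS libraries, and after DEX 3 control, 3 PS and 2 AS libraries, each from 1 mouse. According to the study's methods, injections were made in the morning soon after lights-on, controls were singly housed for some days, tissue was punched from frozen sections, and DEX samples of stressed mice with low *Tph2* were left out. A single time of day was therefore sampled, and a difference in level cannot be told apart here from a shift in the timing of a rhythm. The study's methods describe more DRN libraries than the 16 given here, even after the samples with low *Tph2* were left out. The reason was not found in the sources used here.

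The circadian clock of mammalian cells is a feedback loop of transcription. The proteins CLOCK and ARNTL (also called BMAL1) bind E-box sequences as a pair and switch on the *Per* and *Cry* genes, whose proteins return to the nucleus and inhibit that pair. A second loop runs through the nuclear receptors NR1D1 and NR1D2 (REV-ERB alpha and beta), which repress *Arntl*, and *Dbp* is an output gene whose protein activates genes through D-box sequences. *Per1* is known in many tissues as a direct target of the glucocorticoid receptor, and glucocorticoids are a time signal for clocks outside the suprachiasmatic nucleus, the master clock of the brain.

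The sequence upstream of the start site is shown for the genes on which the results turn, *Per1* and *Dbp*, and for the other genes of the set in which a clock motif was found before the start, *Per3* and *Cry1*. Sequences are from RefSeq (build GRCm38.p6), read 5′ to 3′ on the strand of the gene, and capitals mark a motif. The motifs searched on both strands were the E-box (CACGTG), the D-box (TTATGTAA or TTACGTAA), a core of the glucocorticoid response element (ACANNNTGT), a ROR element (TAGGTCA or TGGGTCA) and the cAMP response element (TGACGTCA). Windows ran from 250 bases before to 50 bases after each listed start, and what is printed is the stretch before the start that lies in no annotated exon.
*Per1*, first start, chr11:69098699-69098947, plus strand: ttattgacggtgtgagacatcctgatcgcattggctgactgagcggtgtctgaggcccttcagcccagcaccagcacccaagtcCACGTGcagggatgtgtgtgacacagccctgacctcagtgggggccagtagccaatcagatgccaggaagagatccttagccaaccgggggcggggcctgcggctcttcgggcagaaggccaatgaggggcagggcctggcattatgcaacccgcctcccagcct
*Per1*, second start, chr11:69099902-69100151, plus strand: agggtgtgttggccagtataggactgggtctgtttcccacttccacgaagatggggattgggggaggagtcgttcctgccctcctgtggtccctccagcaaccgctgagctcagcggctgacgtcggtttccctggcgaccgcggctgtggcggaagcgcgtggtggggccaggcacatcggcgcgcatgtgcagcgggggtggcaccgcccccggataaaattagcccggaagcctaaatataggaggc
*Dbp*, chr7:45704997-45705087, plus strand: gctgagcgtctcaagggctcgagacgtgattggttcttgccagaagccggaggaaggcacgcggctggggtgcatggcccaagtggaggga
*Per3*, chr4:151044666-151044915, minus strand: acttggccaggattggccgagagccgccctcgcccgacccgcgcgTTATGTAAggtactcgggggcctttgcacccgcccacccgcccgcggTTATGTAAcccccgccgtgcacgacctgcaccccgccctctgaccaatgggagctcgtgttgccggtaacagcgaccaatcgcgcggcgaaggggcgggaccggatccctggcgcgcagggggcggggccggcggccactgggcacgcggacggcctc
*Cry1*, chr10:85185065-85185304, minus strand: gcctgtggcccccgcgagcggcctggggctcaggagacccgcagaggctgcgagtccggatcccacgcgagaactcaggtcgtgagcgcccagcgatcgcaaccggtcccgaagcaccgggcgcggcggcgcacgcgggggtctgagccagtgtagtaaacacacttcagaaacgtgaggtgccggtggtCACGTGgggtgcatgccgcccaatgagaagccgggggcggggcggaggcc
An E-box stood 166 bases before the first *Per1* start and 60 bases before that of *Cry1*, so 2 of the 13 windows of the set held one (2 of the 9 genes with a window), against 7.15% of the 32851 windows of all genes. *Per3* carried a pair of D-boxes, 205 and 158 bases before its start, a motif held by 1.06% of all windows. A ROR element lay in 1 window of *Arntl*, after the start (6.45% of all windows), and no window of the set held the glucocorticoid response element core (6.85% of all windows) or the cAMP response element (1.79%). These are matches of letters in short windows. The absence of a match in the *Dbp* or *Per1* windows says nothing about sites elsewhere in these genes.

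All 16 libraries had the transcripts of the tissue and of the treatment. The libraries held between 38207157 and 62447298 reads in the listed genes. *Tph2*, the serotonin synthesis enzyme of the brain, ranged from 91764 to 182191 normalized counts (reads divided by 1 scaling factor per library), the serotonin transporter gene *Slc6a4* from 74627 to 129820.0 and the serotonergic transcription factor gene *Fev* from 3483 to 9636. Because the authors had left out samples with low *Tph2*, its range is not an independent check of the tissue. The glucocorticoid target *Fkbp5* lay between 1241 and 1536 in the 8 saline libraries and between 5578 and 6958 in the 8 DEX libraries, and *Tsc22d3* and *Sgk1* were also higher in every DEX library than in any saline library. Both corticosteroid receptor genes were expressed, with *Nr3c1* at 5704 to 7386 in saline and 3759.7 to 5624 in DEX libraries and *Nr3c2* at 1323 to 1913 and 1234 to 1555. Averaged over controls, PS and AS, both were lower after DEX (limma, adjusted p under 0.1), as were 1.53% of all genes. *Nr3c1* was lower in every DEX library than in any saline library, and *Nr3c2* overlapped.

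All 10 clock genes were expressed in every library, at no less than 580.4 normalized counts. Between genes, levels were compared per kilobase of annotated exon (the union of exons in GENCODE vM21), with the median and range over all 16 libraries. The output gene *Dbp*, the repressor *Cry2* and the receptors *Nr1d1* and *Nr1d2* were the most abundant transcripts of the set per length. *Cry2* had a median of 911 normalized counts per kilobase (627 to 1096), *Dbp* 907 (588 to 1374), *Nr1d2* 872 (790.2 to 1119) and *Nr1d1* 806 (591 to 1039). *Per1* followed at 458 (260.2 to 666), then *Clock* at 299 (175 to 336), *Per3* at 232 (137 to 325), *Cry1* at 217 (178 to 259) and *Per2* at 212 (120 to 299.7). *Arntl*, the partner of *Clock*, was the lowest at 92.8 (77.1 to 100.9). Neighbors in this order overlapped in range in every case but the last, *Per2* over *Arntl*, where *Per2* was the higher in 16 of 16 libraries. *Dbp* and *Cry2* changed places with treatment. *Dbp* was the higher per kilobase in 8 of 8 saline libraries (median 1041 against 883 for *Cry2*), and *Cry2* was the higher in 8 of 8 DEX libraries (median 1014 against 717 for *Dbp*). *Nr1d1* exceeded *Per1* in 16 of 16 although their ranges over libraries overlapped. With the length of the longest transcript in place of the exon union, *Dbp* came first and *Cry2* next, the other places did not move, and *Per2* and *Arntl* overlapped in range.

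Within groups the genes differed in how much they varied from mouse to mouse. The pooled within-group standard deviation (SD) on the log2 scale, over 10 residual degrees of freedom, was smallest for *Arntl* (0.12) and *Cry1* (0.14) and largest for *Per3* (0.33), *Per2* (0.28) and *Per1* (0.23). *Dbp* had an SD of 0.20, *Clock* 0.20, *Nr1d1* 0.19, *Cry2* 0.16 and *Nr1d2* 0.16.

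DEX was compared with saline to learn how the clock transcripts responded to glucocorticoid receptor activation. Averaged over controls, PS and AS, *Per1* rose by 45.2% and *Dbp* fell by 31.7%. These were the 2 clock genes of 10 called (adjusted p under 0.1, limma with Benjamini-Hochberg adjustment over all genes), against 4.31% of all 14504 genes called in the same comparison. By direction, 1 of 10 was called higher (2.78% of all genes) and 1 of 10 lower (1.53% of all genes). The other 8 were not called. Their estimates ran from -0.10 (*Nr1d1*) to 0.35 (*Per2*) on the log2 scale.

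*Per1* (ENSMUSG00000020893.17, GRCm38 chr11:69095217-69109960, plus strand, protein coding) encodes a repressor of the loop. In controls it stood at 1937, 1911 and 1732 normalized counts in the 3 saline libraries, and at 2815, 2435 and 3104 in the 3 DEX libraries. In PS mice it was at 2770.3 and 2385 in saline libraries 62 and 68 and at 2795, 2724 and 3749 in DEX libraries 6, 34 and 64. In AS mice it was at 2438, 2169 and 1465 in saline libraries 8, 14 and 40 and at 3506 and 3327 in DEX libraries 38 and 42. Every DEX library lay above every saline library in controls and in AS mice. In PS mice the groups overlapped, since saline library 62 was higher than DEX library 34 and close to DEX library 6. Of the 8 DEX libraries, 6 lay above all 8 saline libraries.

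The average change of *Per1* was 0.54 on the log2 scale (standard error (SE) 0.11, 95% interval 0.31 to 0.77, limma adjusted p = 0.0105). Taken by phenotype, it changed by 0.58 in controls (SE 0.17, limma adjusted p = 0.191), 0.25 in PS (SE 0.19, limma adjusted p = 1.0) and 0.79 in AS (SE 0.19, limma adjusted p = 0.123), none of them called. In controls it passed in 3 of 16 alternative fits and in 1 of 16 fits that left out 1 library. These were DESeq2 (adjusted p = 0.0601), library weights (0.0865), a ribosomal protein gene score as a covariate (0.0915) and the fit without AS saline library 40 (0.053). In AS it passed in 2 of 16 alternative fits, DESeq2 (adjusted p = 0.0195) and library weights (0.0037). It also passed in 2 of 16 fits that left out 1 library, PS DEX library 64 (0.0991) or AS saline library 8 (0.065). The AS change was 0.57 without AS saline library 40, the lowest of all 16 libraries for *Per1*. In AS, DESeq2 called 274 genes of the table and library weights 1402, against 100 in the main fit. The call in the average was kept in all 16 fits that left out 1 library (adjusted p from 0.00477 to 0.0547).

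*Dbp* (ENSMUSG00000059824.12, GRCm38 chr7:45705088-45710203, plus strand, protein coding) moved the other way. In controls it went from 3001, 4113 and 2904 normalized counts in the saline libraries to 2168, 2122 and 2024 in the DEX libraries. In PS mice the values were 3218 and 2736 in saline libraries 62 and 68 and 1760.2, 2333 and 2316 in DEX libraries 6, 34 and 64. In AS mice they were 3014, 3745 and 3520.1 in saline libraries 8, 14 and 40 and 2692 and 2121 in DEX libraries 38 and 42. All 8 DEX libraries lay below all 8 saline libraries, with DEX library 38 of AS mice (2692) and saline library 68 of PS mice (2736) closest to each other. *Dbp* was the 1 clock gene of 10 separated between the treatments (1.88% of all genes), with 1 of 10 lower in every DEX library (0.51% of all genes) and 0 of 10 higher in every one (1.37%).

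The average change of *Dbp* was -0.55 on the log2 scale (SE 0.10, 95% interval -0.75 to -0.34, limma adjusted p = 0.00388). It was called in controls, at -0.65 (SE 0.15, limma adjusted p = 0.077), as the 1 clock gene of 10 called there, against 1.26% of all genes. In PS (-0.49, SE 0.17, limma adjusted p = 0.602) and in AS (-0.51, SE 0.17, limma adjusted p = 0.346) it did not pass. In AS it was -0.34 without DEX library 42, and it passed with library weights (-0.60, adjusted p = 0.0095). No clock gene passed in those phenotypes, where 0.703% of all genes were called in PS and 0.689% in AS. At an unadjusted p under 0.05 there were 1 of 10 clock genes in PS (4.69% of all genes) and 4 of 10 in AS (9.36%), and DESeq2 called 0 and 1. The control call was also lost with library weights (adjusted p = 0.152) and when only the control libraries were fitted (0.225), and it depended on single libraries. It was lost without the control saline library that stood highest at 4113 normalized counts (-0.49, adjusted p = 0.309), without any of the 3 control DEX libraries (adjusted p from 0.182 to 0.333), and narrowly without PS DEX library 34 (0.105) or AS saline library 14 (0.101). In the average the call was kept in all 16 such fits (adjusted p from 0.00387 to 0.0257).

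The annotated exons of *Dbp* share 539 bases (18.0% of its exon bases) with *Sphk2* on the opposite strand. The study's methods report high strand specificity for each sample, but the strand setting of the counting is not given in the sources used here. *Sphk2* itself was at 1197 to 2030.3 normalized counts with an average DEX change of -0.0034 on the log2 scale (SE 0.09, limma adjusted p = 0.989). *Nr1d1* likewise shares 263 bases (8.55%) with *Thra* on the opposite strand, and *Thra* changed by -0.01 (SE 0.09, limma adjusted p = 0.957). *Cry2* and *Arntl* share 295 and 33 exon bases with D930015M05Rik and Gm45355, which were not listed in the table.

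Because a ratio within a library does not depend on the scaling of libraries, the level of *Per1* was also divided by that of *Dbp*, a pairing chosen after their values were seen and given here as a description. The ratio ran from 0.416 to 0.872 in the 8 saline libraries (median 0.621) and from 1.15 to 1.62 in the 8 DEX libraries (median 1.42). These counts are not divided by length (2993 exon bases for *Dbp* and 5631 for *Per1*). The ratio therefore compares libraries and does not show which of the 2 transcripts was the more abundant.

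**Figure D1:**
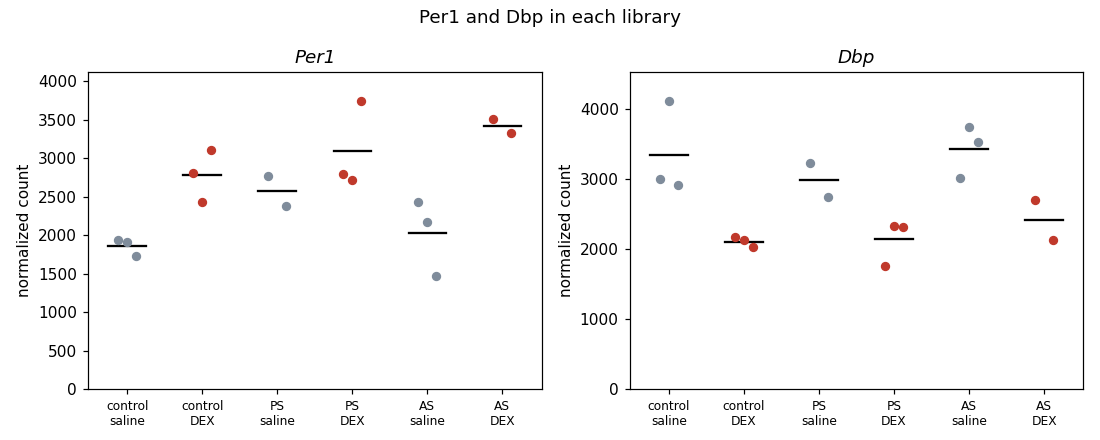
Normalized counts of *Per1* (left) and *Dbp* (right) in each of the 16 libraries, by group. Each point is 1 library (gray, saline and red, DEX) and each bar is the group mean. *Dbp* lies between 1760.2 and 2692 in DEX and between 2736 and 4113 in saline libraries, and *Per1* overlaps between treatments in PS mice only.

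The other period genes were next. *Per2* (ENSMUSG00000055866.9, chr1:91415982-91459324, minus strand), the repressor most tied to the phase of the clock, ranged in saline from 703 to 1296 normalized counts (median 1111) and in DEX from 909.7 to 1755 (median 1305), with 4 DEX libraries above all saline libraries. Its average change of 0.35 (SE 0.13, 95% interval 0.065 to 0.63) was not called (limma adjusted p = 0.242). In AS mice *Per2* stood at 1239, 1157 and 703 in saline and at 1596 and 1453 in DEX libraries, a change of 0.60 (SE 0.24, limma adjusted p = 0.474). This value was 0.35 without AS saline library 40, the lowest of all 16 libraries for *Per2*, and it passed with library weights (0.40, adjusted p = 0.0914). *Per3* (chr4:151003652-151044665, minus strand), the period gene with the weakest role in timekeeping, spanned 1319.6 to 2691 in saline and 1598 to 3120.2 in DEX libraries, with an average change of 0.09 (SE 0.15, 95% interval -0.23 to 0.42, limma adjusted p = 0.791), whose sign turned with library weights (-0.015).

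Of the cryptochromes, *Cry2* (ENSMUSG00000068742.11, chr2:92403646-92434043, minus strand) came closest to a call. It ranged from 3961 to 5880.4 normalized counts in saline (median 5579) and from 5585 to 6927 in DEX libraries (median 6407), and 6 DEX libraries lay above all 8 saline libraries. The average change was 0.24 (SE 0.08, 95% interval 0.07 to 0.40, limma adjusted p = 0.165), and it passed with library weights (0.17, adjusted p = 0.0565). In AS mice it went from 5493, 5487 and 3961 in saline to 6539 and 6927 in DEX libraries, a difference of 0.45 (SE 0.14, limma adjusted p = 0.295). Without library 40 it was 0.29, and with library weights it passed at 0.31 (adjusted p = 0.0317). *Cry1* (chr10:85131700-85185064, minus strand) had an average change of 0.08 (SE 0.08, 95% interval -0.09 to 0.26) and ranges of 594 to 827 in saline and 605 to 865 in DEX libraries.

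The activators of the loop were not called in any DEX comparison. *Clock* (chr5:76209868-76304792, minus strand) ranged from 2402 to 4177 normalized counts in saline and from 3676 to 4610.0 in DEX libraries, an average change of 0.16 (SE 0.09, 95% interval -0.05 to 0.36, limma adjusted p = 0.471). In controls its change was 0.33 (SE 0.15, limma adjusted p = 0.399), which rested on the control saline library at 2402 normalized counts (3634 and 4177 in the other two) and was 0.0997 without it and 0.499 without the one at 4177. *Arntl* (chr7:113207465-113314126, plus strand) ranged from 580.4 to 723 in saline and from 608 to 759 in DEX libraries, a change of 0.13 (SE 0.07, 95% interval -0.03 to 0.29, limma adjusted p = 0.453).

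The receptors of the second loop had estimates slightly below 0. *Nr1d1* (chr11:98767932-98775333, minus strand) ranged from 1818 to 3198 in saline and from 1962 to 2679 in DEX libraries, with a change of -0.10 (SE 0.09, 95% interval -0.29 to 0.10). For *Nr1d2* (chr14:18204054-18239127, minus strand) the ranges were 4274 to 6053 and 4402 to 5667, and the change was -0.07 (SE 0.08, 95% interval -0.23 to 0.10). Neither interval reached a change of the size seen for *Per1* or *Dbp*. The same held for the intervals of *Per3*, *Clock*, *Arntl*, *Cry1* and *Cry2*, but not for that of *Per2*.

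**Figure D2:**
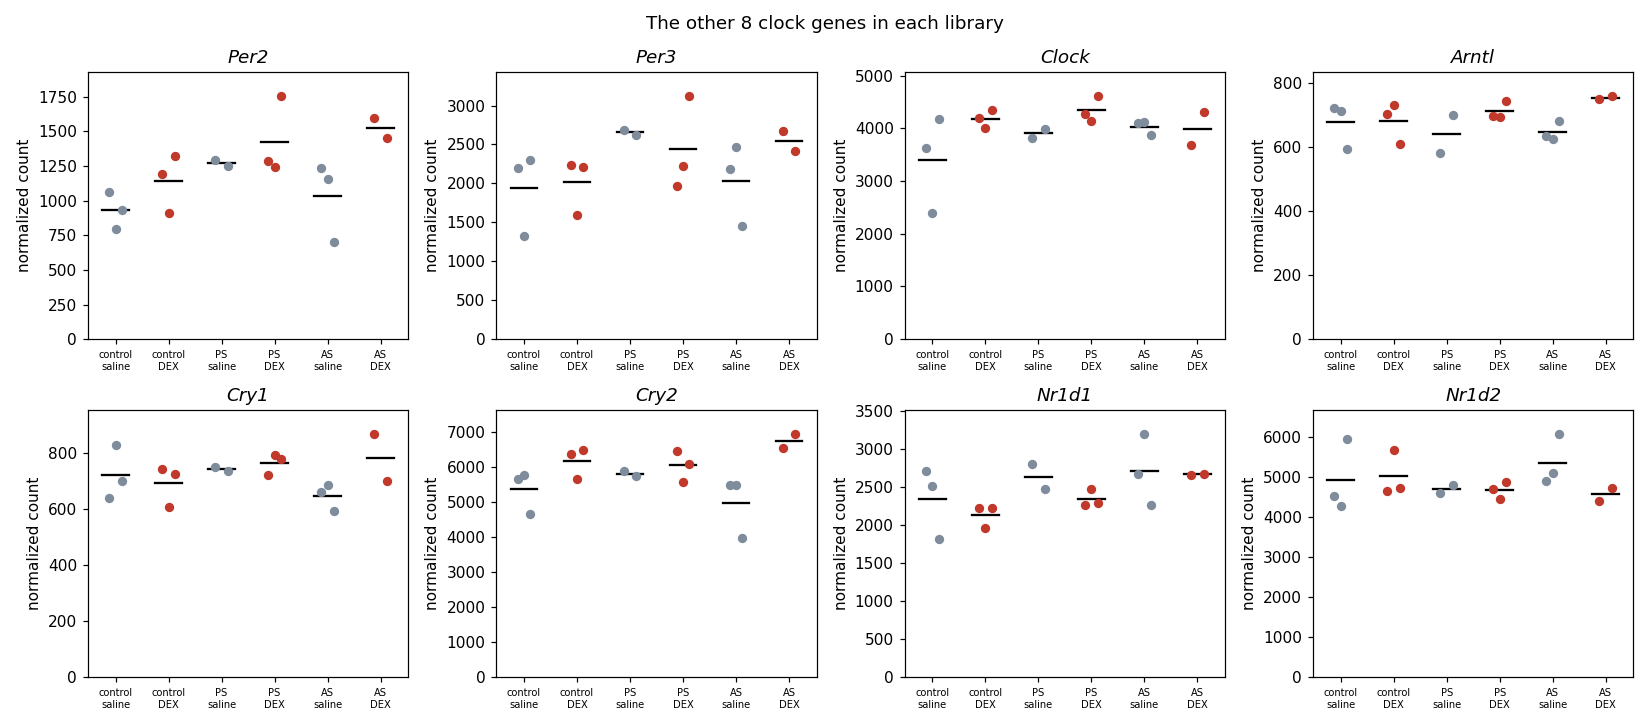
Normalized counts of the other 8 clock genes in each library, by group. Points are libraries (gray, saline and red, DEX) and bars are group means, with all axes starting at 0. Over the 8 saline and 8 DEX libraries the treatments overlap for each of these genes, with AS saline library 40 lowest for *Per2* (703) and *Cry2* (3961) and 1 control saline library lowest for *Clock* (2402).

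Across the set, the median average change was 0.11 on the log2 scale against -0.0026 for all genes, and the median size without sign was 0.14 against 0.11. At an unadjusted p under 0.05 there were 4 of 10 clock genes (*Per1*, *Dbp*, *Cry2* and *Per2*) against 14% of all genes. In controls there were 3 of 10 against 12.1%.

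The libraries of the treatments did not overlap for 2 of 10 clock genes in controls, where 15.9% of all genes did not, with *Per1* higher (8.51% of all genes) and *Dbp* lower (7.43%). In PS mice there were 3 of 10 (21.3% of all genes), with *Clock* higher (11.2%) and *Dbp* and *Nr1d1* lower (10.1%). In AS mice there were 7 of 10 (29.8% of all genes), with *Per1*, *Per2*, *Cry1*, *Cry2* and *Arntl* higher (15.1%) and *Dbp* and *Nr1d2* lower (14.8%).

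**Figure D3:**
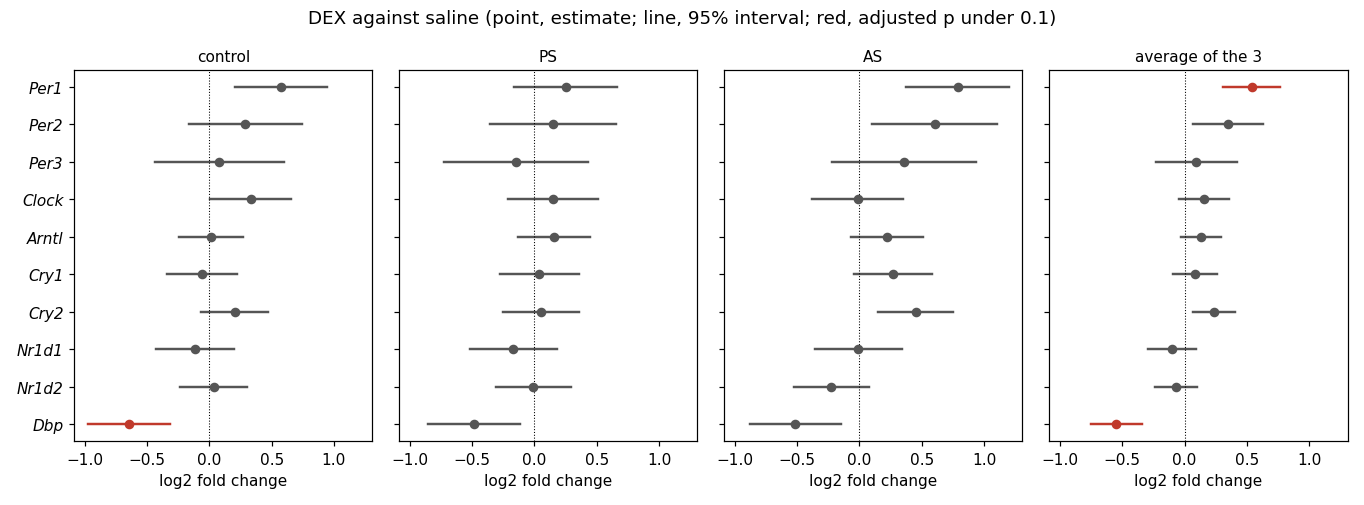
Log2 fold change of DEX against saline for each clock gene in controls, PS, AS and their average. Points are limma estimates, lines are 95% intervals and red marks adjusted p under 0.1. In the average *Per1* is at 0.54 and *Dbp* at -0.55, and 8 of 10 genes are not called.

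Whether DEX acted differently in the phenotypes was tested by the interaction terms. No clock gene was called in any of the 3 (limma), as was no gene of the table (0% called), and at an unadjusted p under 0.05 there were 0 of 10 clock genes in each, against 2.1%, 4.02% and 2.9% of all genes. DESeq2 also called no clock gene in them, with 0, 0 and 1 genes of the table, and edgeR called none. Between AS and PS the *Per1* change was larger in AS by 0.54 (SE 0.27, 95% interval -0.05 to 1.12), that of *Per3* by 0.51 (SE 0.38, 95% interval -0.31 to 1.33), that of *Per2* by 0.45 (SE 0.33, 95% interval -0.26 to 1.17) and that of *Cry2* by 0.40 (SE 0.20, 95% interval -0.03 to 0.82), each with a limma adjusted p of 0.869. For *Dbp* the difference was -0.03 (SE 0.24, 95% interval -0.55 to 0.49). With 2 AS DEX and 2 PS saline libraries these intervals are wide, and differences as large as the average *Per1* change remain within them. AS saline library 40 deviated from its group mean by -0.43 for *Per1*, -0.45 for *Per3*, -0.51 for *Per2* and -0.31 for *Cry2* on the log2 scale. For *Dbp* its deviation was 0.04. Without this library the DEX change of *Per1* in AS was 0.57 in place of 0.79.

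Some measures moved with treatment or with single libraries, and their values belong beside the *Per1* and *Dbp* results. In bulk tissue fewer cells of a type and less RNA per cell cannot be told apart. Of 6 microglia markers (*Cx3cr1*, *P2ry12*, *Tmem119*, *Csf1r*, *Aif1*, *C1qa*), all 6 of them detected, 3 (*Cx3cr1*, *P2ry12* and *Aif1*) were called lower in the average (1.53% of all genes). The summed level of all 6 markers was 4017 to 5436 normalized counts in saline and 3295 to 3928 in DEX libraries, without overlap. With the mean log2 score of these markers as a covariate, a fit added after seeing the data, *Per1* changed by 0.12 (limma adjusted p = 0.82) and *Dbp* by -0.27 (limma adjusted p = 0.594), while *Per2*, *Per3*, *Cry2* and *Nr1d2* changed sign, to -0.063, -0.097, -0.14 and 0.12. In that fit 46 genes were called against 625 without the covariate. Since the score separates the treatments completely, it cannot be told apart from DEX in these libraries.

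The calls of *Per1* and *Dbp* in the average were kept with the score of 79 ribosomal protein genes as a covariate (0.43, adjusted p = 0.00408 and -0.51, adjusted p = 0.0062). In the same fit the average of *Per2* went from 0.35 to 0.20 and that of *Cry2* from 0.24 to 0.15, and in AS mice *Per2* went from 0.60 to 0.31 and *Cry2* from 0.45 to 0.28. *Per3* turned to -0.027. The calls of *Per1* and *Dbp* were also kept with ependymal, oligodendrocyte and serotonin neuron marker scores. The summed level of 6 ependymal markers ranged widely, from 2213 to 7333 in saline and from 1003 to 9757 in DEX libraries. That of 6 oligodendrocyte markers ranged from 128308 to 211326 and from 127282 to 178543, that of 8 serotonin neuron markers from 332812 to 477928 and from 314622 to 467287, that of 6 astrocyte markers from 75173 to 108407 and from 74553 to 89841, and that of 6 endothelial markers from 4926 to 8416 and from 5655 to 7145. Although these sums overlapped, 2 of the 6 oligodendrocyte markers (*Mog* and *Cnp*), 1 of the 6 endothelial markers (*Tek*) and 1 of the 8 serotonin neuron markers (*Htr1a*) were called lower in the average (1.53% of all genes). *Cnp* lay below all saline libraries in 7 of 8 DEX libraries. None of these markers was at 0 in all libraries. The part of these cell types in the clock results was not tested beyond these fits.

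Chronic stress was compared with control under saline to learn whether the clock genes were altered before any DEX. No clock gene was called in PS against control, in AS against control or in AS against PS (limma, with 0% of all genes called in each), and DESeq2 called no clock gene either, with 4, 11 and 1 genes of the table. At an unadjusted p under 0.05 there were 1, 0 and 0 clock genes, against 7.67%, 2.39% and 3.41% of all genes.

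In PS mice the 3 period genes were nevertheless at the high end. *Per1* was at 2770.3 and 2385 normalized counts in PS saline, above the control values of 1732 to 1937. *Per2* was at 1296 and 1248 against 795 to 1064, and *Per3* at 2691 and 2617 against 1319.6 to 2303. Each of these 3 genes had both PS libraries above all 3 control libraries, an arrangement found for 14.3% of all genes in the same comparison, while 28.5% did not overlap in either direction. The differences were 0.47 for *Per1* (SE 0.19, 95% interval 0.06 to 0.88), 0.46 for *Per2* (SE 0.24, 95% interval -0.05 to 0.96) and 0.49 for *Per3* (SE 0.27, 95% interval -0.08 to 1.07), all with a limma adjusted p of 0.571. They rest on 2 PS libraries, and that of *Per3* was 0.24 without the control saline library at 1319.6. With the ribosomal protein gene score as a covariate the differences were 0.25 for *Per1*, 0.17 for *Per2* and 0.25 for *Per3* (limma adjusted p = 0.948 for each). That score was 0.36 and 0.33 in 2 of the 3 control saline libraries and below 0 in both PS saline libraries.

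In AS mice under saline 0 of 10 clock genes were separated from controls (4.49% of all genes, or 2.38% of all genes counting those higher in AS). *Clock* had the largest difference, 0.28 (SE 0.15, 95% interval -0.04 to 0.60, limma adjusted p = 0.998), followed by *Nr1d1* at 0.22 (SE 0.15, 95% interval -0.09 to 0.53). *Dbp* differed by 0.05 (SE 0.15, 95% interval -0.28 to 0.38) and *Per1* by 0.09 (SE 0.17, 95% interval -0.28 to 0.46). Between AS and PS under saline the period genes were lower in AS by estimates of -0.38 for *Per1*, -0.34 for *Per2* and -0.42 for *Per3* (limma adjusted p = 0.728 for each), with overlap for *Per1*. These estimates lean on AS saline library 40, which deviated from its group mean by -0.43, -0.51 and -0.45 for the 3 genes. Its ribosomal protein gene score was 0.84, the highest of the 16 libraries. Every AS library lay below both PS libraries for *Per2*, *Per3*, *Cry1* and *Cry2* (12.7% of all genes) and above both for *Nr1d2* (11%), so that 5 of 10 did not overlap (23.6% of all genes).

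Under DEX the phenotypes were also compared with each other. No clock gene was called (limma), with 0% of all genes called in PS against control, 0.00689% in AS against control and 0% in AS against PS, and DESeq2 called no clock gene there either. At an unadjusted p under 0.05 there were 0 of 10 clock genes in each, against 1.23%, 3.5% and 1.7% of all genes. Both AS DEX libraries lay above all 3 control DEX libraries for 6 of the 10 genes (*Per1*, *Per2*, *Per3*, *Arntl*, *Cry2* and *Nr1d1*), an arrangement found for 15.4% of all genes, with 30.3% not overlapping in either direction. The largest of these differences were 0.43 for *Per2* (SE 0.24, 95% interval -0.07 to 0.94), 0.35 for *Per3* (SE 0.27, 95% interval -0.23 to 0.93) and 0.33 for *Nr1d1* (SE 0.16, 95% interval -0.02 to 0.67). A single control DEX library, the one with *Per1* at 2435, was the lowest of its group for *Per1*, *Per2*, *Per3*, *Cry2* and *Nr1d1*.

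**Figure D4:**
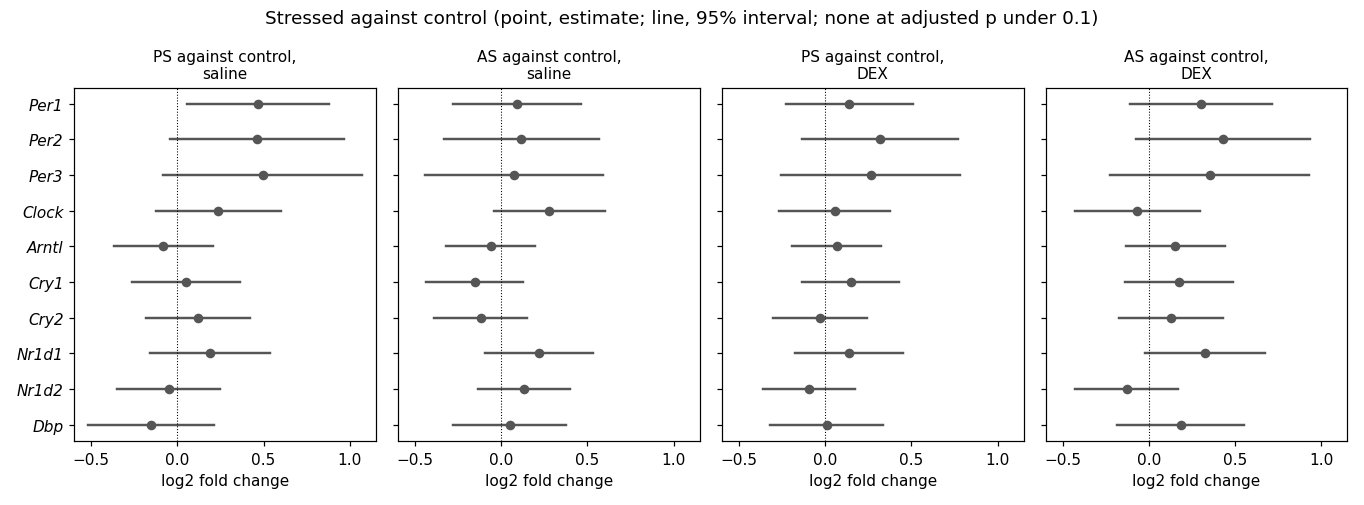
Log2 fold change of PS and AS mice against controls for each clock gene, under saline and under DEX. Points are limma estimates and lines are 95% intervals. None passed at an adjusted p under 0.1, and the period genes of PS mice under saline are at 0.46 to 0.49.

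The wider clock machinery was read from a list of 43 further genes, of which 40 were in the table and *Timeless*, *Avp* and *Fmo2* were not. In the average DEX effect 6 of the 40 were called, against 4.31% of all genes. Of these, 5 were higher (2.78% of all genes) and 1 lower (1.53%). The list was chosen with earlier results of these data known, so its counts are a description and not a test of the list. Within phenotypes, 2 of 40 passed in controls (1.26% of all genes), 1 in PS mice (0.703%) and 1 in AS mice (0.689%), all of them higher (1%, 0.579% and 0.538% of all genes in that direction), and none passed in the stress comparisons under saline. The median average change of the list was 0.04 against -0.0026 for all genes.

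Among the partners of the core loop 1 of 8 was called higher (2.78% of all genes) and 1 lower (1.53%). *Npas2*, a paralog of *Clock* that can pair with ARNTL in the forebrain, was at 74.1 to 188 normalized counts in saline and at 194 to 269.7 in DEX libraries, so that every DEX library was above every saline library. Its average change was 0.69 (SE 0.17, limma adjusted p = 0.0408). *Bhlhe40*, a repressor that binds E-boxes, fell by 0.26 on the log2 scale (SE 0.07, limma adjusted p = 0.0526), from 1491 to 1955 in saline to 1294 to 1812 in DEX libraries. In AS mice *Bhlhe40* was at 1696 ± 179 (SD, n = 3) in saline and 1649 ± 231 (SD, n = 2) in DEX libraries, a difference of -0.04 (SE 0.12).

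Of the kinases, ubiquitin ligases, proteases and phosphatases that set the stability of clock proteins, 1 of 15 was called (4.31% of all genes). *Usp2*, a ubiquitin-specific protease that acts on clock proteins, rose by 0.61 (SE 0.14, limma adjusted p = 0.0293), from 819 to 1245 in saline to 1020.2 to 2112 in DEX libraries. Neither casein kinase gene of the clock passed, with *Csnk1d* at 0.07 (SE 0.07) and *Csnk1e* at 0.07 (SE 0.07). None of the 3 ROR receptor genes, which activate *Arntl*, and none of the 3 D-box factor genes *Tef*, *Hlf* and *Nfil3* was called. *Tef* and *Hlf*, the closest relatives of *Dbp*, had average changes of 0.13 (SE 0.07) and -0.04 (SE 0.08), on either side of 0 and both far from the -0.55 of *Dbp*.

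Of 11 genes listed as clock outputs 3 were called, all higher (2.78% of all genes). Whether these genes follow the clock in this tissue was not tested. *Mat2a*, which makes the methyl donor S-adenosylmethionine, was at 7176 to 9293 normalized counts in saline and 10369.7 to 12967 in DEX libraries, a change of 0.48 (SE 0.06, limma adjusted p = 0.000423). *Usp54*, of the family of ubiquitin-specific proteases, was at 2515 to 4076 and 4307 to 6396, a change of 0.77 (SE 0.11, limma adjusted p = 0.0011). *Rasd1*, a small G protein first found as a dexamethasone-induced gene, was at 56.7 to 169.7 and 96.7 to 223, a change of 0.92 (SE 0.20, limma adjusted p = 0.0163). Every DEX library was above every saline library for *Mat2a* and *Usp54*, and the treatments overlapped for *Rasd1*. Of 6 light and activity responsive genes (*Fos*, *Junb*, *Egr1*, *Nr4a1*, *Arc*, *Npas4*), none was called in the average (4.31% of all genes).

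The clock genes were then compared with each other within groups. For each pair the correlation was taken over the 16 deviations from the group means, which share the dissection, the depth and the scaling of a library, and the values are given as a description. Of the 45 pairs, 24 were positive and 21 negative, with a median r of 0.08. The period genes moved together, with r = 0.91 for *Per1* and *Per2*, 0.88 for *Per2* and *Per3* and 0.66 for *Per1* and *Per3*. *Cry2* went with *Per1* (0.76) and with *Nr1d1* (0.75), whereas the paralogs *Nr1d1* and *Nr1d2* ran opposite to each other (-0.85), as did *Cry2* and *Nr1d2* (-0.77) and *Clock* and *Dbp* (-0.68). *Per1* and *Dbp*, the 2 genes called after DEX, had r = 0.10 within groups, and the activators *Clock* and *Arntl* had -0.37.

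**Figure D5:**
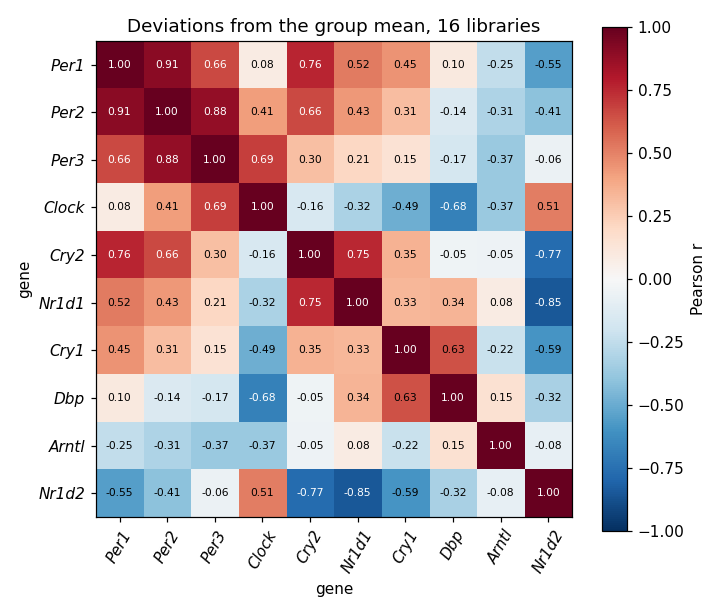
Pearson r between clock genes of the deviations from the group mean on the log2 scale, over 16 libraries. Red is positive and blue negative. The period genes and *Cry2* share positive values up to 0.91, and *Nr1d2* is negative with *Nr1d1* (-0.85) and *Cry2* (-0.77).

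Scores of other genes moved with these deviations. The score of the 79 ribosomal protein genes (mean log2 deviation) was 0.84 in AS saline library 40, 0.36 and 0.33 in 2 control saline libraries and 0.26 in 1 control DEX library, the one with the lowest *Per1* of its group, and at most 0.03 in the other libraries. Its within-group deviations correlated at -0.87 with those of *Cry2*, -0.85 with *Per2*, -0.78 with *Per1*, -0.61 with *Per3* and 0.61 with *Nr1d2*, and at 0.35 with *Dbp* and 0.15 with *Arntl*. The serotonin neuron marker score correlated at 0.64 with *Dbp*, -0.69 with *Clock*, -0.69 with *Per3* and -0.62 with *Per2*. The ependymal marker score correlated at 0.73 with *Dbp*, and the microglia marker score at -0.72 with *Cry2*. The part of these scores in the correlations between clock genes was not tested.

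Finally, the genes whose levels over all 16 libraries were most like those of *Per1* and *Dbp* were listed among 12862 genes with a mean of at least 100 normalized counts, by Pearson r of log2 values, which includes the DEX effect. For *Per1* they were *Tbc1d8* (r = 0.959), *Crocc* (0.9602) and *Pitpnm2* (0.9604), and for *Dbp* they were *Szrd1* (0.945), *Emp2* (0.935) and *Aif1l* (0.928). Within groups the same pairs had r of 0.937, 0.908 and 0.872 with *Per1* and of 0.833, 0.817 and 0.785 with *Dbp*.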

How the data were processed

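The 16 libraries were grouped by their labels into 6 groups. Per the study's methods and the submitters' processing notes, the authors trimmed reads with fastp 0.20.1, aligned them to mm10 (GRCm38) with HISAT2 2.2.1, counted them per gene with featureCounts of Subread 2.0 and the GENCODE annotation, and normalized with DESeq2 1.36.0. The strand setting of the counting is not given in the sources used here. The values the authors deposited are a signal, namely counts divided by 1 size factor per library. Multiplied by that factor, 100% of values came out as whole reads (within 0.1 read) in each library, so the depth of 38207157 to 62447298 reads is known. The authors' deposited tables of their own comparisons (log2 fold change and p-value per gene) were not used.

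Here log2(normalized count + 1) was fitted in limma 3.58.1 (R 4.3.3) with 1 mean per group across the 16 libraries and eBayes with a trend (10 residual and 3.88 prior degrees of freedom). Fold changes are on this scale, which understates low genes. P-values are two-sided and were adjusted over all 14504 genes in each contrast, and genes were called below an adjusted p of 0.1, which the study also used. The pseudocount was 1 and no further filter was applied. The fit was tested on simulated counts with the same dispersion for every gene and the same DEX fold in each phenotype. Shifts of single libraries were not simulated, so that test does not cover them.

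Alternatives were pseudocounts of 0.1 and 10, means of at least 10 or 100, TMM and quantile scaling, robust eBayes, library weights, fits on only the groups compared, DESeq2 1.42.0 and edgeR 4.0.16 on the recovered reads, and leaving out each library. After seeing the data, 5 covariates were added (scores of ribosomal protein genes and of microglia, ependymal, oligodendrocyte and serotonin neuron markers). A score is the mean log2 deviation of the genes of a list. The members and gene lists were chosen with earlier results of these data known. Named genes were the 10 members, the genes of the wider list called in the average DEX effect or a saline stress comparison, *Fkbp5*, *Tsc22d3* and *Sgk1*, *Nr3c1* and *Nr3c2*, *Tph2*, *Slc6a4* and *Fev*, genes overlapping a member, and the 3 genes most like each of the 2 members with the smallest p. *Csnk1d*, *Csnk1e*, *Tef* and *Hlf* were named after their values were seen. Gene positions are from GENCODE vM21, and promoter windows from RefSeq matched 9 of the 10 members (13 windows). *Per2* had no entry.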

Additional observations from a re-analysis of the deposited data

How the results depend on the processing

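No paired analysis was possible because the library numbers differ between groups. The count of clock genes called in the average DEX effect was 2 under every alternative of scaling, filter and tool and in the 16 fits without 1 library, 3 with library weights (*Cry2* added), and 0 with the microglia marker covariate, which turned *Per2* to -0.063, *Per3* to -0.097, *Cry2* to -0.14 and *Nr1d2* to 0.12. The average of *Per3* also changed sign with library weights (-0.015) and with the ribosomal protein (-0.027) and serotonin neuron (-0.060) covariates. The other settings reversed none of the 10 genes in the average effect. Comparisons between phenotypes, under saline or under DEX, and interactions had 0 clock genes called in every fit run. In controls the count of 1 became 0 with only the groups compared and 2 with DESeq2, was 2 with the ribosomal protein covariate and 0 with the microglia covariate, and ran from 0 to 2 without 1 library. In AS the count of 0 became 4 with library weights and 1 with DESeq2 (0 to 1 without 1 library), and in PS it was 0 throughout.

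For the wider list, the 6 calls of the average were 3 with the oligodendrocyte covariate, 0 with the microglia covariate and 4 to 6 without 1 library. The 2 calls in controls were 1 with quantile scaling, robust eBayes, edgeR and the oligodendrocyte covariate, 0 with only the groups compared or the microglia covariate, and 0 to 3 without 1 library. The 1 call in PS was 5 with library weights, 3 with the ribosomal and 2 with the ependymal covariate, 0 with the microglia covariate and 0 to 2 without 1 library. The 1 call in AS was 8 with library weights, 3 with DESeq2, 2 with the ribosomal or ependymal covariate, 0 with only the groups compared, the microglia or the oligodendrocyte covariate, and 0 to 3 without 1 library. The cause of these shifts was not tested. The clock genes had 544 or more reads in each library, and the groups held 2 to 3 mice.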
